A study of Homo sapiens with 6 samples.

Results

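The intron control probesets of a human gene expression array are described here in L1236 cells. They are the probesets that the deposited annotation puts in the category of introns of normalization genes, and they numbered 2904 of the 33297 probesets on the array, or 8.72%. The references were the 1195 control probesets for exons of normalization genes, the 45 antigenomic probesets and the 28840 probesets of the main category. L1236 is a single cell line, grown from tumour cells of Hodgkin lymphoma, a cancer of B-cell origin. Its RNA was measured on 6 arrays that cross 3 agents with 2 times, so no combination of agent and time was repeated.

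The untreated groups were cells without any agent, with RNA labelled 1 h and 8 h. The methanol groups had 0.1% methanol, the vehicle, in serum-free medium for 1 h or 8 h. The LTD4 groups had leukotriene D4 at 100 nM, diluted in methanol, in serum-free medium for the same times. LTD4 is a signalling lipid of inflammation, and its receptors are G protein-coupled. The labels do not say which medium the untreated cells were in or how much methanol the LTD4 medium held, so both methanol and LTD4 arrays are called methanol-containing below. A change of medium and an effect of methanol therefore cannot be told apart in any difference from untreated cells.

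An intron is transcribed as part of the primary transcript and is cut out by the spliceosome, after which it is usually degraded in the nucleus while the joined exons leave for the cytoplasm as mRNA. Probes that match introns of widely expressed genes therefore see unspliced transcripts, retained introns, and any transcript that the annotation does not know. They also see binding of unrelated RNA. On arrays of this kind intron and exon probesets of such genes serve as a negative and a positive control pair, and antigenomic probes, which match no human sequence, give a level for unspecific binding.

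The deposited annotation gave 0 of the 2904 intron probesets a gene symbol and 0 of them a position, so they are named by probeset number only. They held 1 to 4 probes each, and 2589 of them (89.2%) held 4, close to the 89.4% of exon control probesets that did. Main probesets had a median of 26 probes and antigenomic probesets a median of 456, so the controls for introns and exons were the comparison with the most similar construction. On all 6 arrays, 6 intron probesets were listed at 0, and no other intron probesets shared all their values. In all, 66 were listed at 0 on at least 1 array.

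The arrays showed the markers of the labelled cells. Of 12 genes listed for Hodgkin and Reed-Sternberg cells, 9 had a mean above the antigenomic limit defined below, among them IRF4, a transcription factor of activated B cells and plasma cells, at 12.17. TNFRSF8, which codes for CD30, a receptor typical of these cells, was at 9.47 and below the limit. Of the B-cell list 1 of 7 was above it, PAX5 at 10.56, and of the lists for T cells, monocytes and red cells 0 of 4, 0 of 4 and 0 of 3. Of all main probesets 12.1% had a mean at or above the limit, so these low counts do not show that a cell type was absent. Values here and below are levels as log2(intensity + 16) unless an intensity is named, and the intensities are linear.

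The intron probesets were dim as a class and differed clearly from the exon controls on every array, while a bright minority overlapped them. In the order untreated, methanol and LTD4, the median intron intensity was 83.0, 106 and 117 at 1 h and 76.2, 126 and 110 at 8 h. As log2 levels these medians were 6.63, 6.93 and 7.06 at 1 h and 6.53, 7.15 and 6.98 at 8 h. Both untreated arrays were the lowest. The exon medians in the same order were 11.35, 11.19 and 11.24 at 1 h and 11.30, 11.52 and 11.38 at 8 h, with no such order.

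The exon median exceeded the intron median by 4.72, 4.26 and 4.19 at 1 h and by 4.78, 4.37 and 4.40 at 8 h. This is a ratio of between 18.2 and 27.4 on the offset scale. A random exon probeset was higher than a random intron probeset in 0.885, 0.863 and 0.866 of all pairs at 1 h and in 0.884, 0.883 and 0.881 at 8 h, where 1 would be full separation and 0.5 none. Between 197 and 246 introns, 6.78% to 8.47%, exceeded the exon median of their array.

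Against the antigenomic probesets the separation was much smaller. Antigenomic medians were 5.83, 6.02 and 6.13 at 1 h and 5.83, 6.24 and 6.15 at 8 h, so the intron median lay 0.70 to 0.93 above them. An intron probeset was higher than an antigenomic one in 0.546 to 0.580 of pairs, and 29.2% to 34.3% of introns lay below the antigenomic median. The 45 antigenomic probesets had a wide spread, since their upper quartile lay between 8.91 and 9.61 and that of the introns between 7.80 and 8.49.

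**Figure D1:**
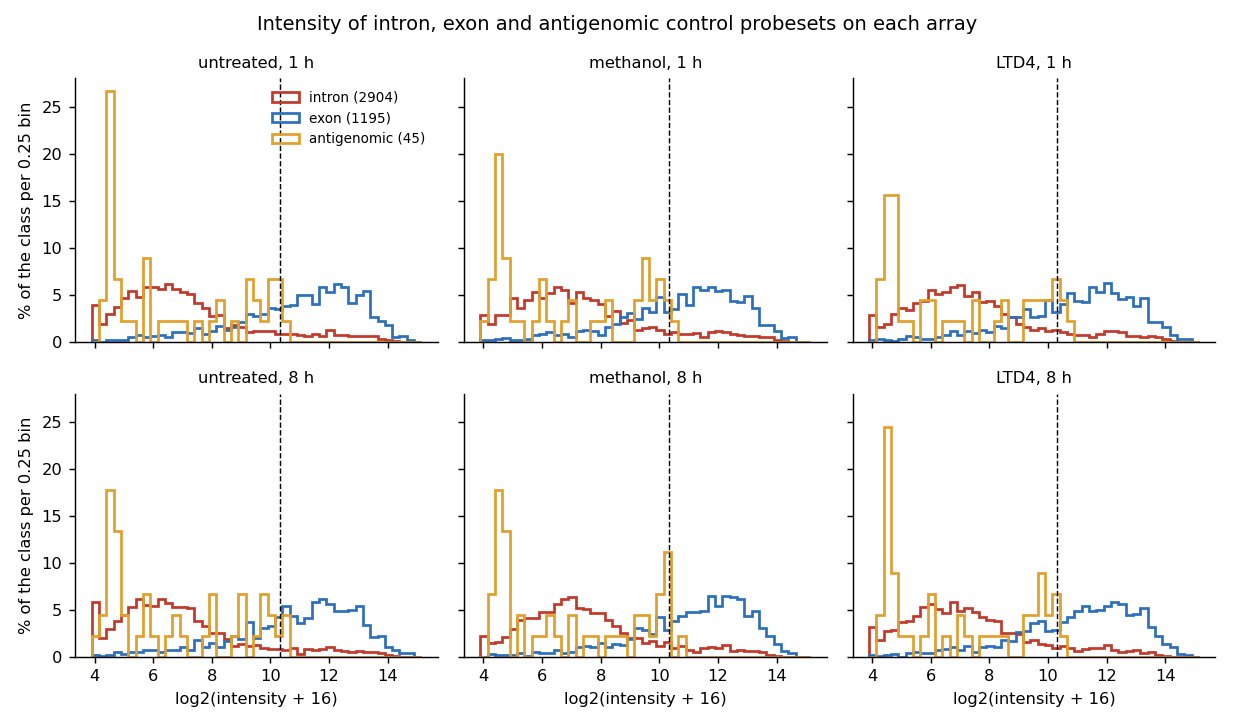
Histograms of log2(intensity + 16) in bins of 0.25 for 2904 intron, 1195 exon and 45 antigenomic control probesets, 1 panel per array, with the share of each class in percent on the vertical axis and the antigenomic limit of 10.32 as a dashed line. Introns peak at low levels and have a thin tail beyond the limit, where 9.81% to 11.5% of them lie, while most exons lie beyond it.

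A limit for signal above unspecific binding was set at the 95th percentile of antigenomic values over all arrays, which came to 10.32, an intensity of 1263. At 1 h 306, 333 and 334 introns were above it on the untreated, methanol and LTD4 array, and at 8 h 285, 324 and 304. The same introns accounted for most of these counts. On all 6 arrays 272 introns (9.37%) were above the limit, on at least 1 array 364 (12.5%), and on none 2540 (87.5%). Of the exon controls 64.3% to 71.2% were above it. Of main probesets 11.1% to 14.5% were, and of all probesets 13.2% to 16.4%, so most other probesets were also below this limit.

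The brightest intron probeset was 7896631, with intensities of 20012, 17856 and 18996 at 1 h and 20368.5, 17073 and 16838 at 8 h. The next were 7895354, 7895514, 7894647 and 7893507, with intensities from 13408 to 19895 over all arrays. These 5 held 4 probes each and were at the level of the top of the exon controls, whose 95th percentile lay between 11266 and 13064. For each of the 5, both 8 h arrays with methanol or LTD4 were below all other arrays.

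The order of intron probesets was kept less tightly between arrays than that of exon and main probesets. Spearman correlations across the 2904 introns ranged from 0.912 to 0.958, the lowest between the 1 h methanol and 8 h untreated arrays and the highest between the 8 h methanol and LTD4 arrays. Across main probesets the range was 0.956 to 0.993 and across exon controls 0.965 to 0.994. These values describe probesets that share their arrays and scanner scale, and probesets are not independent replicates.

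The first comparison asked whether introns differed between methanol-containing and untreated cells. The median intron level was 7.03 ± 0.10 (SD, n = 4) on the methanol-containing and 6.58 ± 0.07 (SD, n = 2) on the untreated arrays, a difference of 0.45 or 1.37-fold. All 4 methanol-containing arrays were above both untreated arrays, at 6.93 to 7.15 against 6.53 and 6.63. The exact two-sided permutation test over arrays gave p = 0.133, which is the smallest that 4 arrays against 2 can give. The labels name no separate cultures, so all p-values here stand on array-to-array spread alone, and that spread may be technical.

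The exon controls did not share this difference. Their median was 11.33 ± 0.15 (SD, n = 4) on methanol-containing and 11.33 ± 0.04 (SD, n = 2) on untreated arrays, a difference of 0.01 with an exact permutation p of 1.0. The gap between exon and intron medians was accordingly smaller with methanol, at 4.30 ± 0.10 (SD, n = 4) against 4.75 ± 0.04 (SD, n = 2), a difference of -0.44. The 2 groups of arrays did not overlap in this gap, with exact permutation p = 0.133, again the smallest possible.

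The shift was not confined to introns. The antigenomic median was 0.31 higher and the main median 0.32 higher on the methanol-containing arrays, each with no overlap and an exact permutation p of 0.133. Taken probeset by probeset, the median difference in the model fitted below was 0.09 over antigenomic, 0.22 over main and 0.34 over intron probesets. The gap between main and intron medians was 1.06, 1.00 and 0.80 at 1 h and 0.88, 0.73 and 0.83 at 8 h, and these values overlapped between the groups (exact permutation p = 0.267). After each array was centred on the median of all probesets, the intron difference was 0.11 and the arrays overlapped (exact permutation p = 0.267). After quantile normalization it was 0.09 (exact permutation p = 0.667) and the difference in the gap between exons and introns was -0.10 (exact permutation p = 0.4).

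**Figure D2:**
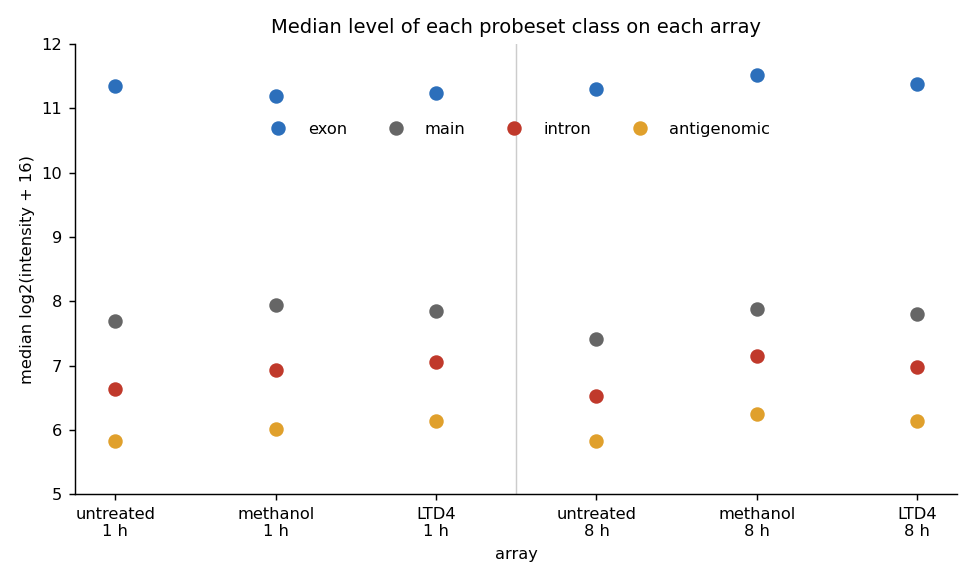
Median log2(intensity + 16) of exon, main, intron and antigenomic probesets on each of the 6 arrays, 1 point per array, with the times separated by a line. The intron points of the untreated arrays, 6.63 and 6.53, lie below the 4 methanol-containing ones, as do the antigenomic and main points, while the exon points show no such order.

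At 1 h, methanol minus untreated had a median of 0.24 over introns and was positive for 69.5% of them, and at 8 h it was 0.50 and positive for 81.4%. Over all probesets the share positive was 62.4% at 1 h and 84.7% at 8 h, so at 8 h introns were positive less often than the array as a whole. The exon controls had medians of -0.22 and 0.21, and the main probesets 0.15 and 0.34. Antigenomic medians were 0.03 and 0.12, and the intron median was the highest of the 4 classes at each time. No test applies to 2 single arrays. The highest of the 6 arrays was untreated for 209 introns at 1 h and 159 at 8 h, and the lowest was untreated for 689 and 1198. Tied arrays were counted for the first of them. These counts were not made over all probesets, so they do not show a trait of introns.

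A linear model with additive terms for agent and for time was fitted with limma over all 33297 probesets, which left 2 residual degrees of freedom, and Benjamini-Hochberg adjusted p-values were read at a threshold of 0.05. It called 620 introns higher in methanol-containing than in untreated cells, 21.3% of introns, where the background over all probesets was 8.53%. It called 13 introns lower, 0.448%, where the background was 0.55%. Of the 620 introns, 600 were higher on all 4 pairs of arrays. Their changes ran from 0.64 to 2.56 with a median of 0.93.

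Over all introns the median fitted difference was 0.34, against 0.22 over all probesets, 0.22 over main, 0.09 over antigenomic and 0.00 over exon probesets. When arrays were first centred on the median of all probesets, limma called 69 introns higher and 22 lower, 2.38% and 0.758%, against 0.838% and 1.24% of all probesets. All 69 were among the 620. The median fitted difference over introns was then 0.0007, against 0.34 without centring. Centring takes 1 value from each array, so it leaves the distance between classes as it was. Of intron calls 75.8% were then higher, where 97.9% were without centring. Centring on the antigenomic median left 40 higher and 7 lower, 1.38% and 0.241%, against 0.408% and 0.508% of all probesets. Quantile normalization left 1 higher and 0 lower, where it left 2 and 13 of all probesets.

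Whichever array was left out, a larger share of introns than of all probesets was called higher. Like the count over all probesets, the count of 620 nonetheless depended on single arrays. It was 180 without the methanol array of 8 h, 217 without the untreated array of 8 h, 326 without the methanol array of 1 h and 494 to 659 without each of the others. The 13 lower calls ranged from 3, without the methanol array of 1 h, to 33, without the untreated array of 1 h. A simpler count needs no fit: 944 introns (32.5%) had all 4 methanol-containing arrays above both untreated ones, where the background was 32.4%, and 47 (1.62%) had all 4 below, where the background was 3.82%. By that count the introns stood at the share of all probesets for higher values.

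The called introns with the greatest change that moved the same way on all 4 pairs were 7895146 and 7893175, each a single probe. Probeset 7895146 had intensities of 83.0 untreated, 172 with methanol and 197 with LTD4 at 1 h, and 0.02, 276 and 246 at 8 h. Its low array was untreated at 8 h, and limma gave 2.56 (SE 0.42, adjusted p = 0.00105). Without that array the change was 1.02, and the call was lost without the methanol array of 8 h, with an offset of 1, under both centrings and after quantile normalization.

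Probeset 7893175 had intensities of 151, 479 and 252 at 1 h and 0.03, 106 and 380.5 at 8 h in the same order. Here too the untreated array of 8 h was near 0, limma gave 2.45 (SE 0.45, adjusted p = 0.00263), and without that array the change was 1.12 and no longer called (limma adjusted p = 0.216). That call was also lost without either methanol array, with offsets of 1 and 64, under both centrings and after quantile normalization (limma adjusted p = 0.222). Without the untreated array of 1 h the changes of the 2 probesets were 4.11 and 3.78.

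The lower calls with the greatest change were 7894629 and 7893615. Probeset 7894629 had intensities of 12.4, 0 and 0 at 1 h and 45.4, 8.27 and 0.03 at 8 h, all below the antigenomic median except untreated at 8 h. Its methanol and LTD4 arrays of 1 h are listed at 0, and limma gave -1.23 (adjusted p = 0.00238). The change was -0.83 and no longer called without the untreated array of 8 h (limma adjusted p = 0.121), and the call was also lost without either methanol array, with an offset of 64 and after quantile normalization. After quantile normalization the limma adjusted p was 0.136. Probeset 7893615, a single probe, had 265, 107 and 48.7 at 1 h and 181, 125 and 173 at 8 h, with the untreated array the highest of its time, and limma gave -0.96 (adjusted p = 0.0445). Without the untreated array of 1 h that change was -0.28, without the 1 h LTD4 array it was -0.54, and without the untreated array of 8 h it was -1.65.

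The difference between methanol-containing and untreated arrays depended on level and was greatest in the middle of the intron range. Introns were put in bands by their mean level over the 6 arrays. The median difference was 0.15 for the 334 introns below 5, 0.32 for 556 from 5 to 6, 0.40 for 664 from 6 to 7, and 0.50 for 531 from 7 to 8. It was 0.47 for 474 introns from 8 to 10, 0.14 for 197 from 10 to 12 and -0.04 for 148 at 12 and above. Bright introns thus had no difference of the size seen in the middle bands.

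Main probesets of the same bands, from the lowest up, had median differences of 0.09, 0.23, 0.31, 0.32, 0.17, 0.05 and -0.01. The share called higher by limma from the lowest band up was 6.89%, 19.1%, 25%, 30.3%, 30.6%, 8.12% and 2.03% of introns. In main probesets it was 1.87%, 6.13%, 9.08%, 11.3%, 7.46%, 2.95% and 1.54%. Exon controls from 7 to 8 and from 8 to 10 had median differences of 0.17 (n = 50 probesets) and 0.06 (n = 226 probesets), below those of introns. From 5 to 6 and from 6 to 7 the exon values were closer to the intron values, at 0.22 (n = 22 probesets) and 0.33 (n = 32 probesets), and 18.8% of the latter were called higher.

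**Figure D3:**
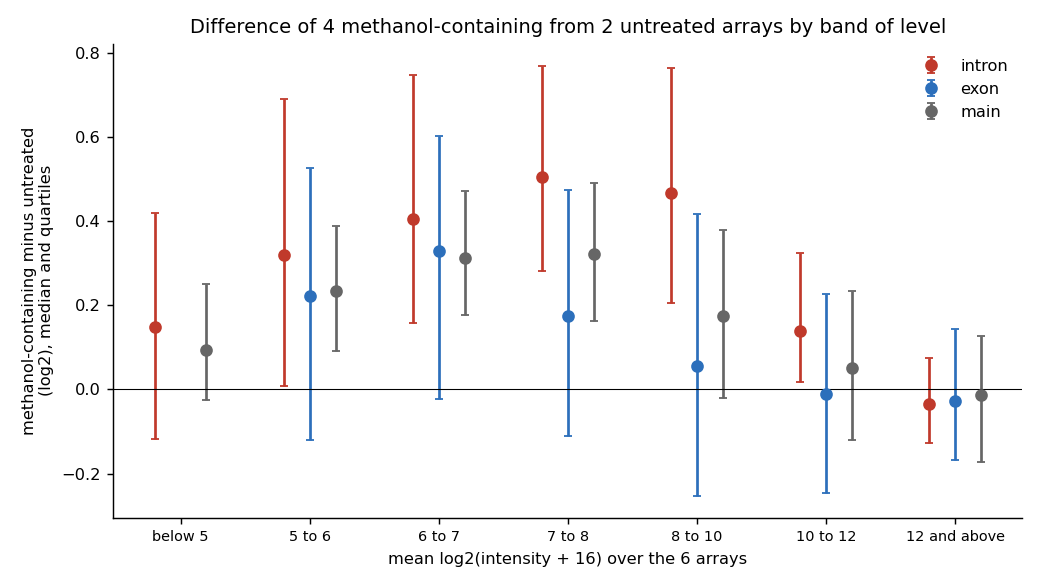
Difference of the mean of 4 methanol-containing arrays from the mean of 2 untreated arrays in log2 units, as the median (point) and quartiles (bars) over the probesets of a class, by band of mean log2(intensity + 16). Intron medians reach 0.50 from 7 to 8 and 0.47 from 8 to 10, where main medians are 0.32 and 0.17, and all 3 classes are near 0 at 12 and above, while the 8 exons below 5 are not drawn.

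The introns of the band from 8 to 10 were set against other probesets of the same band on each array. The classes did not have the same level within it. Among probesets of 4 probes, the median of the mean level was 8.66 for introns, 9.29 for exon controls and 8.78 for main probesets. The gaps below are therefore matched in level only to the band. The 474 introns had medians of 8.42, 8.85 and 8.88 at 1 h and 8.29, 8.98 and 8.86 at 8 h, in the order untreated, methanol and LTD4. The 8656 main probesets of the band had 8.91, 8.93 and 8.98 at 1 h and 8.72, 9.13 and 8.99 at 8 h. Main minus intron was therefore 0.50, 0.08 and 0.10 at 1 h and 0.43, 0.15 and 0.13 at 8 h.

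The gap in this band was smaller on all 4 methanol-containing arrays than on both untreated ones, by 0.35, and the exact permutation p was 0.133, the smallest possible. This gap is not changed by centring an array, and after quantile normalization its difference was -0.30, again without overlap. Against the 226 exon controls of the band the gap was 0.88, 0.23 and 0.33 at 1 h and 0.89, 0.57 and 0.50 at 8 h, a difference of -0.47 without overlap (exact permutation p = 0.133). Of the other bands of all probesets, exons against introns from 7 to 8 also had no overlap for this comparison, with -0.38, while main against intron probesets overlapped in each of them. In all 110 comparisons of per-array values were tested, and the lowest Benjamini-Hochberg adjusted value of their exact permutation p-values was 0.732.

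Introns of 4 probes were also called higher more often than main probesets of 4 probes. Of the 2589 introns of 4 probes, 21.7% were called higher, with a median difference of 0.35. Of the 503 main probesets of 4 probes, 9.74% were called higher, with a median difference of 0.17. From 8 to 10 these shares were 30.0% of 434 introns and 12.1% of 66 main probesets, and from 7 to 8 31.6% of 469 and 8.06% of 62. From 6 to 7 they were 25.5% of 599 and 10.1% of 89. Exon controls of 4 probes, most of them bright, were called higher in 4.78% of 1068. By band they were called in 25% of 24 from 6 to 7, about the intron share, in 10.9% of 46 from 7 to 8 and in 11.3% of 204 from 8 to 10.

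With 4 probes in both classes, the median difference of introns and main probesets was 0.42 and 0.23 from 6 to 7, 0.51 and 0.19 from 7 to 8, and 0.47 and 0.36 from 8 to 10. The band from 8 to 10 thus had the least distance of the 3 bands when probe number was matched. Its main minus intron gap was then 0.25, -0.10 and 0.09 at 1 h and 0.23, -0.09 and -0.06 at 8 h, a difference of -0.28 without overlap (exact permutation p = 0.133). From 7 to 8 the same difference was -0.39 without overlap (exact permutation p = 0.133), and from 6 to 7 it was -0.19 with overlap (exact permutation p = 0.267). These matched comparisons were added after the data were seen and are not among the 110 adjusted ones.

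At a fold of 2 between single arrays, 281 introns (9.68%) were higher with methanol than untreated at 1 h, where the background was 3.51%, and 63 (2.17%) were lower, where it was 0.985%. At 8 h 668 (23.0%) were higher, with a background of 6.78%, and 29 (0.999%) lower, with a background of 0.342%. These counts have no test. With arrays centred on the median of all probesets the counts were 138 higher and 151 lower at 1 h, and 219 and 99 at 8 h. The 1 h counts were 168 and 124 when centred on the antigenomic median, and 159 and 136 after quantile normalization. These scalings were not counted over all probesets, so no background can be set beside them.

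Some of these introns passed the fold at both times. The 102 that were higher at both (3.51%, background 1.56%) were 36.3% of the 1 h list and 15.3% of the 8 h list, where the same shares over all probesets were 44.6% and 23.1%, and 0 were lower at both (background 0.0991%). Another 20 introns were lower at 1 h and higher at 8 h, of 33 such probesets on the array, and 5 were the reverse, of 7. Across the 2904 introns, the difference at 1 h and that at 8 h, which share no array, had a Pearson correlation of 0.143 and a Spearman correlation of 0.184, and 67.5% had the same sign. Pearson values were 0.415 across exon controls and 0.384 across main probesets.

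**Figure D4:**
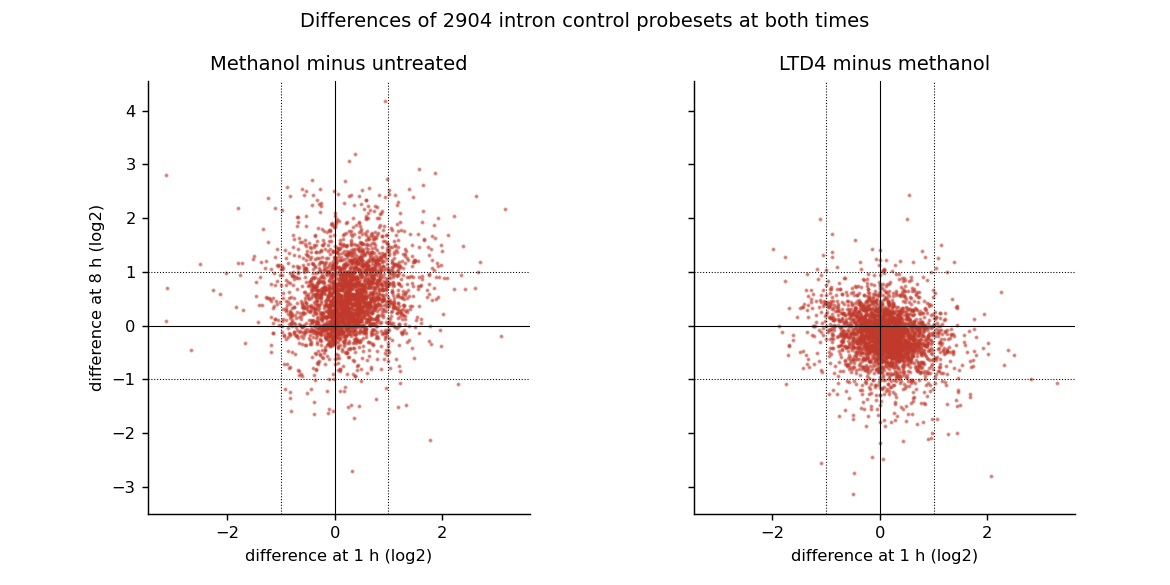
Difference of each of 2904 intron probesets at 1 h (horizontal) and 8 h (vertical) in log2 units, for methanol minus untreated and for LTD4 minus methanol, with dotted lines at a fold of 2. The methanol cloud is shifted above 0, with 69.5% of introns positive at 1 h and 81.4% at 8 h and a Pearson correlation of 0.143, and the LTD4 cloud is shifted slightly up at 1 h and down at 8 h with a correlation of -0.191.

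The second comparison was LTD4 against its vehicle. The median intron level was 7.02 ± 0.06 (SD, n = 2) with LTD4 and 7.04 ± 0.15 (SD, n = 2) with methanol, a difference of -0.02 with an exact permutation p of 1.0, where 2 arrays against 2 cannot go below 0.333. The 2 times pointed in opposite directions, with LTD4 minus methanol at 0.13 for the median at 1 h and at -0.17 at 8 h. Over single introns the median difference was 0.09 at 1 h, with 60.0% of introns higher, and -0.17 at 8 h, with 30.5% higher.

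limma called 0 introns higher and 0 lower for LTD4 against methanol, and the background over all probesets was 0.0% in both directions. At an unadjusted limma p under 0.05 there were 247 of the 2904 introns, where there were 473 of all 33297 probesets. The lowest adjusted limma p of an intron was 0.176. With an offset of 1 in place of 16 limma called 2 higher and 1 lower. Without either LTD4 array it called introns in both directions, in fits that gave all probesets the same variance. Across the 2904 introns the difference at 1 h and that at 8 h had a Pearson correlation of -0.191, and 38.8% had the same sign. The correlation across main probesets was -0.357.

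A rule of a 2-fold distance of LTD4 from each of the other arrays of its time selected few introns. At 1 h 47 were higher with LTD4 (1.62%, background 0.21%) and 13 lower (0.448%, background 0.0931%). At 8 h 20 were higher (0.689%, background 0.0871%) and 26 lower (0.895%, background 0.0961%). Centred on the antigenomic median, the 1 h counts turned to 17 higher and 30 lower, so which direction had more introns at 1 h depended on the scaling. Introns made up 67.1%, 41.9%, 69.0% and 81.2% of the probesets selected on the whole array by these 4 counts.

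The selected introns were dim. A mean level below 7 was found for 41 of the 47, 12 of the 13, 17 of the 20 and 25 of the 26, where 53.5% of all introns were below 7. Fewer than 4 probes were present in 11 of the 47, 3 of the 13, 6 of the 20 and 11 of the 26, where 10.8% of all introns had fewer. None had a mean of 10 or more. With an offset of 64 in place of 16 the 4 counts were 3, 0, 2 and 1.

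The introns farthest from both references upward at 1 h were 7893267 and 7894703. Probeset 7893267 had intensities of 0.07, 3.33 and 56.8 at 1 h and 39.1, 68.7 and 47.4 at 8 h, in the order untreated, methanol and LTD4, so the LTD4 value of 1 h was within the range of the 8 h arrays. Probeset 7894703 had 1.40, 2.66 and 43.6 at 1 h and 3.66, 40.4 and 6.54 at 8 h. There the methanol array of 8 h was nearly as high as the LTD4 array of 1 h.

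Downward at 1 h they were 7892895 and 7892982. Probeset 7892895 had 68.8, 76.9 and 9.33 at 1 h and 28.9, 109 and 108 at 8 h. Probeset 7892982, a single probe, had 56.1, 37.7 and 0.07 at 1 h and 4.08, 79.6 and 29.3 at 8 h. The LTD4 array of 1 h was the lowest of all 6 in both.

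At 8 h the upward ones were 7893175, described above, and 7893124, which had 0, 0 and 19.2 at 1 h and 0.91, 0.01 and 29.4 at 8 h. Probeset 7893124 was the only one of the 8 selected introns named here in which the LTD4 arrays of both times were above all 4 others. Its intensities were nonetheless below the antigenomic median on every array, and limma gave 1.32 (SE 0.23, adjusted p = 0.254).

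The downward ones at 8 h were 7894590 and 7894652. Probeset 7894590, a single probe, had 24.7, 55.6 and 35.0 at 1 h and 48.7, 93.0 and 0.25 at 8 h. Probeset 7894652 had 99.8, 209 and 219 at 1 h and 131, 224 and 26.9 at 8 h. In each the LTD4 array of 8 h was the lowest of the 6.

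The spread of LTD4 minus methanol over introns fell with level and with number of probes. It is an SD over different probesets of 1 array minus another, so it is not the error of any single intron. For LTD4 minus methanol at 8 h the SD over introns was 0.64 below a level of 5, then 0.63, 0.52, 0.42, 0.31 and 0.17 in the bands up to 12, and 0.12 at 12 and above. For main probesets it fell from 0.31 to 0.16 over the same bands. By number of probes the SD over introns at 8 h was 0.97 for 1 probe, 0.59 for 2, 0.55 for 3 and 0.45 for 4, and at 1 h it was 0.84, 0.70, 0.61 and 0.51. Main probesets of 4 probes, which were dimmer with a median level of 5.97 against 6.89 for introns of 4 probes, had an SD of 0.50 at 8 h and 0.56 at 1 h.

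**Figure D5:**
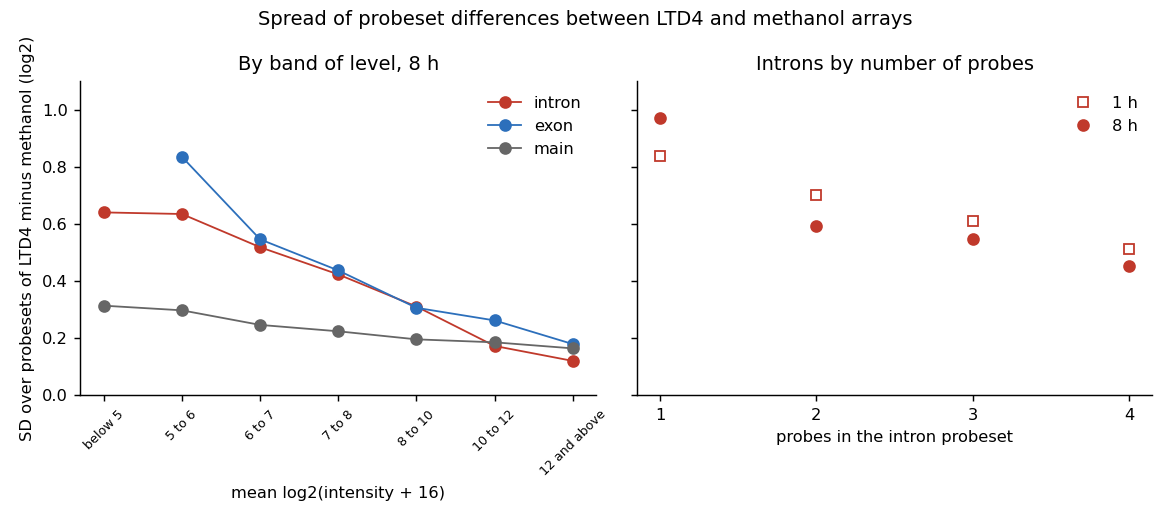
SD over probesets of LTD4 minus methanol in log2 units, by band of mean log2(intensity + 16) at 8 h for introns, exons and main probesets, and by number of probes for introns at 1 h and 8 h. The SD over introns falls from 0.64 in the lowest band to 0.12 in the highest, and from 0.97 with 1 probe to 0.45 with 4 at 8 h, while the 8 exons below 5 are not drawn.

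The last comparison was 8 h against 1 h. The median intron level was 6.88 ± 0.32 (SD, n = 3) at 8 h and 6.87 ± 0.22 (SD, n = 3) at 1 h, a difference of 0.01 with an exact permutation p of 1.0. Within agents the difference was -0.10 without treatment, 0.22 with methanol and -0.08 with LTD4, so the sign was not shared. The gap between exon and intron medians was 0.13 higher at 8 h (exact permutation p = 0.5).

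limma called 1 intron higher and 1 lower at 8 h, 0.0344% each, where the background was 0.012% higher and 0.033% lower. Without single arrays these counts ran from 0, without either methanol array, to 55 higher and 49 lower, without either LTD4 array. Without either untreated array they were 53 and 23. Over all probesets the calls also fell without a methanol array and rose without each other array. In the fits without an LTD4 array limma gave all probesets the same variance, so those counts do not reflect the spread of single probesets. For time, leaving out either array of an agent gives the same fit, because the remaining array of that agent then has no partner.

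The higher one was 7895255, a single probe with intensities of 0.49, 11.3 and 11.7 at 1 h and 66.3, 89.2 and 23.6 at 8 h. All 8 h values were above all 1 h values, and limma gave 1.60 (SE 0.26, adjusted p = 0.0283). The lower one was 7895738, with 53.1, 160.5 and 100.1 at 1 h and 18.9, 67.8 and 25.2 at 8 h. Its times overlapped in methanol at 8 h and untreated at 1 h, and limma gave -1.19 (SE 0.19, adjusted p = 0.0283). Both calls were lost without either methanol array, with adjusted p = 0.909 and 0.698.

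Bright introns were also compared between the times. The 307 introns with a mean at or above the antigenomic limit had medians of 11.95, 12.05 and 12.18 at 1 h and 11.88, 11.94 and 11.79 at 8 h, in the order untreated, methanol and LTD4. Every 8 h array was below every 1 h array, though the nearest were only 11.94 and 11.95. The mean was 11.87 ± 0.08 (SD, n = 3) at 8 h and 12.06 ± 0.12 (SD, n = 3) at 1 h, a difference of -0.19 with an exact permutation p of 0.1, the smallest that 3 against 3 can give.

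Within agents the median over the bright introns was -0.06 without treatment, -0.14 with methanol and -0.37 with LTD4. Over the dimmer introns it was -0.12, 0.19 and -0.09, and the difference between bright and dim introns was not tested. The 807 exon controls at or above the limit went the other way, by 0.12 with overlap (exact permutation p = 0.3), and so did the 3499 main probesets, by 0.09 with overlap (exact permutation p = 0.4). Centred on the median of all probesets, the bright introns differed by -0.08 and the times overlapped (exact permutation p = 0.8). Centred on the antigenomic median the difference was -0.27 (exact permutation p = 0.3). Between methanol-containing and untreated arrays the bright introns differed by 0.08 with overlap (exact permutation p = 0.667), while the 2597 dimmer introns differed by 0.44 without overlap (exact permutation p = 0.133).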

How the data were processed

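Gene-level intensities on a linear scale were deposited by the authors, 1 column per array. Per the submitters' processing notes RMA and Affymetrix Expression Console were used, while the name of the deposited table carries PLIER. The sources used here do not say which of them made the values, how arrays were scaled or which genome build applies. Another deposited table was equal in 199782 of 199782 values. The number of arrays limits the precision.

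Values were analysed as log2(intensity + 16) without further scaling, which understates changes of dim probesets. The additive model was fitted with limma 3.58.1 in R 4.3.3 on all 33297 probesets with no filter. It was also run on simulated data with the same spread for every probeset. The changes set there were larger than the median change called here. That run therefore does not cover unequal spread between probesets or smaller changes. The model treats the 3 agents as repeats for time and the 2 times as repeats for agent. Medians per array were compared by exact two-sided permutation over arrays with scipy 1.17.1. Differences of single arrays had no test.

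The members, bands, marker lists and comparisons were chosen with earlier results of these data known. Probesets were named by rule: the 5 brightest, up to 2 a direction with the greatest change among limma's calls whose sign was shared by all pairs of arrays, and the 2 farthest a direction for LTD4 at each time. Of 29 probesets with blank annotation none was used as a member or reference class, though they stayed in the fit. Alternatives were the second table, offsets of 1 and 64, centring, quantile normalization, a filter at the antigenomic limit, eBayes with a trend, a 1.5-fold limit, methanol alone as reference, means in place of medians and leaving out each array.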

Additional observations from a re-analysis of the deposited data

Results flagged for a closer look

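Several values had opposite signs at the 2 times or among the 3 agents. With 1 array for each agent and time, these differences between times or agents were not tested. LTD4 minus methanol for the median intron level was 0.13 at 1 h and -0.17 at 8 h. For the gap between exon and intron medians it was -0.072 at 1 h and 0.034 at 8 h. The median intron level at 8 h minus 1 h was -0.10 without treatment, 0.22 with methanol and -0.083 with LTD4.

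Of the intron probesets named for a 2-fold distance of LTD4 from both references, 4 had opposite signs of LTD4 minus methanol at 1 h and 8 h. Probeset 7893175 had -0.89 and then 1.71. Probeset 7893267 had 1.91 and then -0.42, and 7894703 had 1.68 and then -1.32. Probeset 7894652 had 0.060 and then -2.48. These 4 were named for being far from both references at 1 h or 8 h, so the larger value of each pair is what chose it. Probesets named by other rules also included some with opposite signs, which are not listed here.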

How the results depend on the processing

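The precision is limited by 6 single arrays, and most introns lay near the antigenomic level, where offset and scaling weigh most. Each group had 1 array, so there were no replicate numbers to pair by, and limma's comparisons of agents already carry time as a term. The exact permutation tests shuffled arrays freely. They did not keep agents within a time or times within an agent, so their smallest possible p-values hold for free shuffling only. The use of only probesets of 4 probes, and the alternatives for the band from 8 to 10 and for bright introns, were chosen after seeing the data. Where values moved, the cause was not tested. Some alternatives also left fewer arrays or probesets. In limma's fits without an LTD4 array, and in that with the filter, all probesets were given the same variance.

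The higher intron median and the smaller gap between exons and introns in methanol-containing cells kept their direction under each alternative run. Without single arrays they ranged from 0.40 to 0.50 and from -0.48 to -0.41. Among the alternatives, the second table held the same values and could change neither, and centring could not change the gap. The intron difference was 0.11 centred on all probesets, 0.14 centred on antigenomic ones and 0.09 after quantile normalization. In the band from 8 to 10 the gap difference ranged from -0.38 to -0.31 without single arrays, and was -0.28 with only probesets of 4 probes, and that of bright introns over time ranged from -0.25 to -0.13. The intron median for LTD4 minus methanol turned to 0.0498 when centred on all probesets and to 0.0488 after quantile normalization, and ranged from -0.13 to 0.084 without single arrays. For 8 h minus 1 h it turned to -0.07 when centred on antigenomic probesets and to -0.027 as a mean, and ranged from -0.12 to 0.19. The gap for 8 h minus 1 h turned to -0.14 after quantile normalization and ranged from -0.002 to 0.29.

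limma's calls for 8 h minus 1 h were 0 higher and 0 lower with offsets of 1 and 64, both centrings and quantile normalization, 0 and 4 with the filter and 10 and 4 with a trend, and ranged from 0 to 55 and from 0 to 49 without single arrays. For methanol-containing minus untreated they were 192 higher with an offset of 1, 178 and 0 with 64, 69 and 22 centred on all probesets, 40 and 7 on antigenomic ones, 1 and 0 after quantile normalization and 14 and 0 with the filter, and ranged from 180 to 659 and from 3 to 33. With an intensity trend they were 666 and 13, of which 609 of the higher were shared. For LTD4 minus methanol they were 2 and 1 with an offset of 1 and ranged from 0 to 10 and from 0 to 21.

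The 2-fold counts, higher and lower, moved as follows. For LTD4 at 1 h they were 150 and 81 with an offset of 1, 3 and 0 with 64, 17 and 30 centred on antigenomic probesets, 269 and 63 at 1.5-fold, and 136 and 74 against methanol alone. For LTD4 at 8 h they were 71 and 115, 2 and 1, 13 and 45 centred on all probesets, 40 lower on antigenomic ones, 43 lower after quantile normalization, 99 and 98, and 35 and 150. For methanol at 1 h they were 496 and 211, 88 and 12, 138 and 151, 168 and 124, 159 and 136, and 758 and 214 at 1.5-fold. For methanol at 8 h they were 87 lower with an offset of 1, then 241 and 2, 219 and 99, 256 and 90, 297 and 82, and 1283 and 88. Above the antigenomic median in place of its 95th percentile lay 1795, 1955 and 2044 introns at 1 h and 1721, 2123 and 1952 at 8 h. Each of the 6 calls on named probesets kept its direction and was lost under 5 to 9 of 13 alternatives. Those 13 were not all separate. They include the second table, which held the same values, and for the calls on time they include pairs of identical fits.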
